A study of Mus musculus with 48 samples.

Results

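The genes described here are 10 transcription factor genes of the circadian clock, measured by RNA sequencing in mouse brain. They are the activators Arntl, Clock and Npas2, the repressors Bhlhe40 and Bhlhe41, and the output factors Dbp, Tef, Hlf, Nr1d1 and Nr1d2. They were taken by name from tables of 15304 genes in hippocampus and 15263 genes in frontal cortex, and all 10 passed the filter on low counts in both tissues. RNA came from tissue of male C57BL/6 mice, an inbred strain, on postnatal days 63 to 91. Mice had been kept in a stress or a control environment on 3 days, and each session was followed after 60 minutes by an injection of esomeprazole or vehicle into the abdominal cavity. Esomeprazole, a proton pump inhibitor, is given to lower stomach acid. The 4 conditions were stress with esomeprazole, stress with vehicle, control environment with esomeprazole, and control environment with vehicle, each with 6 mice and 6 libraries per tissue, 48 libraries in all. Every mouse, controls included, had the sessions and the injections. The dose is 2 mg/kg in the sample labels, while the treatment protocol prints 2 g/kg. Tissue was taken 12 hours after the final injection. What the stress consisted of, and the hour of day at which tissue was taken, are not given in the sources used here.

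In the molecular clock, the protein of Arntl (BMAL1) pairs with CLOCK, or with its forebrain relative NPAS2, and activates genes that carry E-box sequences. Among the targets are the Period and Cryptochrome repressors, which close the main feedback loop, and the REV-ERB nuclear receptor genes Nr1d1 and Nr1d2, whose products repress Arntl in a second loop. The DEC proteins of Bhlhe40 and Bhlhe41 compete for E-boxes, and the PAR bZIP factors DBP, TEF and HLF carry the rhythm to genes with D-boxes. In tissues with a running clock, Arntl transcript is highest near the time at which Dbp and Nr1d1 are lowest. Levels of these genes are therefore read by time of day, and glucocorticoids, the adrenal stress hormones, can shift the clock of many tissues.

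The E-box CACGTG and its variant CACGTT are the letters through which the activators reach their targets, and they were searched on both strands in the 250 bases before each annotated start of the members. RefSeq promoters on GRCm38.p6 were matched for 9 members, all but Bhlhe40, with 13 promoters in all because some genes have several starts. A match was found in 4 of the 13. The windows of 30 bases around these matches are printed 5′ to 3′ on the gene's strand, with the matching letters in capitals.
Bhlhe41: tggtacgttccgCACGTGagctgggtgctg
Nr1d1: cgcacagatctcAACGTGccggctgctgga
Tef, upstream start: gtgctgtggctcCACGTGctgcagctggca
Tef, downstream start: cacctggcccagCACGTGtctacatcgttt
The window of Bhlhe41 lies at chr6:145865556-145865585 on the minus strand, that of Nr1d1 at chr11:98775388-98775417 on the minus strand, and those of Tef at chr15:81802534-81802563 and chr15:81811264-81811293 on the plus strand. Bhlhe41, Nr1d1 and Tef thus held a match, and that of Nr1d1 is the variant read from the other strand. Neither motif was present in the promoters of Arntl, Clock, Npas2, Dbp, Hlf or Nr1d2 searched here. Over 32851 RefSeq mouse promoters of this table, CACGTG was found in 6.02% and CACGTT in 3.85%. The D-box TTANGTAA (2.06% of the same promoters) and the REV-ERB element cores TAGGTCA (2.23%) and TGGGTCA (3.24%) had no match in the members' promoters. A match describes these letters only, and its absence covers only the windows searched.

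Hippocampal libraries held 25.3 to 42.0 M gene reads and those of frontal cortex 27.6 to 41.5 M. The granule cell gene Prox1 had a median of 1320.4 normalised reads in hippocampus and 143 in frontal cortex, on a scale common to both. The upper-layer cortical gene Cux2 had 945 and 3252. Libraries stood apart in ways that the conditions do not define. The share of all reads that the counting assigned to no annotated feature, called the no-feature share below, ran from 5.03% to 20.6% in hippocampus and from 4.50% to 19.9% in frontal cortex. A share under 12% was seen in 5 libraries of hippocampus (up to 11.5%, the next at 14.1%) and 7 of frontal cortex (up to 11.7%), and this line was drawn from the data. The 5 hippocampal libraries were 1 each of stressed esomeprazole, stressed vehicle and non-stressed esomeprazole mice and 2 of non-stressed vehicle mice, and the 7 of frontal cortex were 2, 2, 2 and 1 in the same order. Markers of striatal neurons were high in 5 hippocampal libraries, with a score (mean log2 deviation of 14 of 16 listed markers) of 2.38 to 3.72 against -1.22 to -0.22 in the other 19. The stressed esomeprazole group held 4 of these 5 and the stressed vehicle group 1. The bulb marker score (15 of 15 olfactory bulb genes) was low in 7 libraries of frontal cortex, at -3.94 to -2.24 against 0.64 to 2.04 in the other 17, and the non-stressed vehicle group held 4 of the 7 and each other group 1.

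Per kilobase of annotated exon, on a scale common to both tissues, the output factors Tef and Nr1d1 were the most abundant members. The median levels in hippocampus, in normalised reads per kilobase, were Tef 1810.0, Nr1d1 1680.3, Bhlhe40 665, Hlf 661, Nr1d2 533, Dbp 247, Npas2 231, Arntl 192, Clock 181 and Bhlhe41 169.6. In frontal cortex they were Tef 1748, Nr1d1 1723, Hlf 895, Bhlhe40 768, Nr1d2 693, Dbp 319, Npas2 283, Clock 219, Arntl 184 and Bhlhe41 157. Neighbours in this order had overlapping ranges (mean ± SD over 24 libraries) in all cases but Nr1d1 against Bhlhe40 in hippocampus. The activators Arntl and Clock stood among the 3 lowest members in both tissues. On mm10 (GENCODE vM21), Arntl lies on chromosome 7, 113207465 to 113314126, Clock on chromosome 5, 76209868 to 76304792, and Npas2 on chromosome 1, 39193731 to 39363236. Bhlhe40 lies on chromosome 6, 108660629 to 108666925, and Bhlhe41 on chromosome 6, 145858243 to 145865558. Of the outputs, Dbp lies on chromosome 7, 45705088 to 45710203, Tef on chromosome 15, 81802421 to 81826863, Hlf on chromosome 11, 90336536 to 90390895, Nr1d1 on chromosome 11, 98767932 to 98775333, and Nr1d2 on chromosome 14, 18204054 to 18239127. An exon of Nr1d1 overlaps Thra on the opposite strand by 263 bases, and Dbp overlaps Sphk2 by 539 bases. The library kit marks strand, but the strand setting of the counting is not given in the sources used here, so reads in these overlaps cannot be assigned with certainty.

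**Figure D1:**
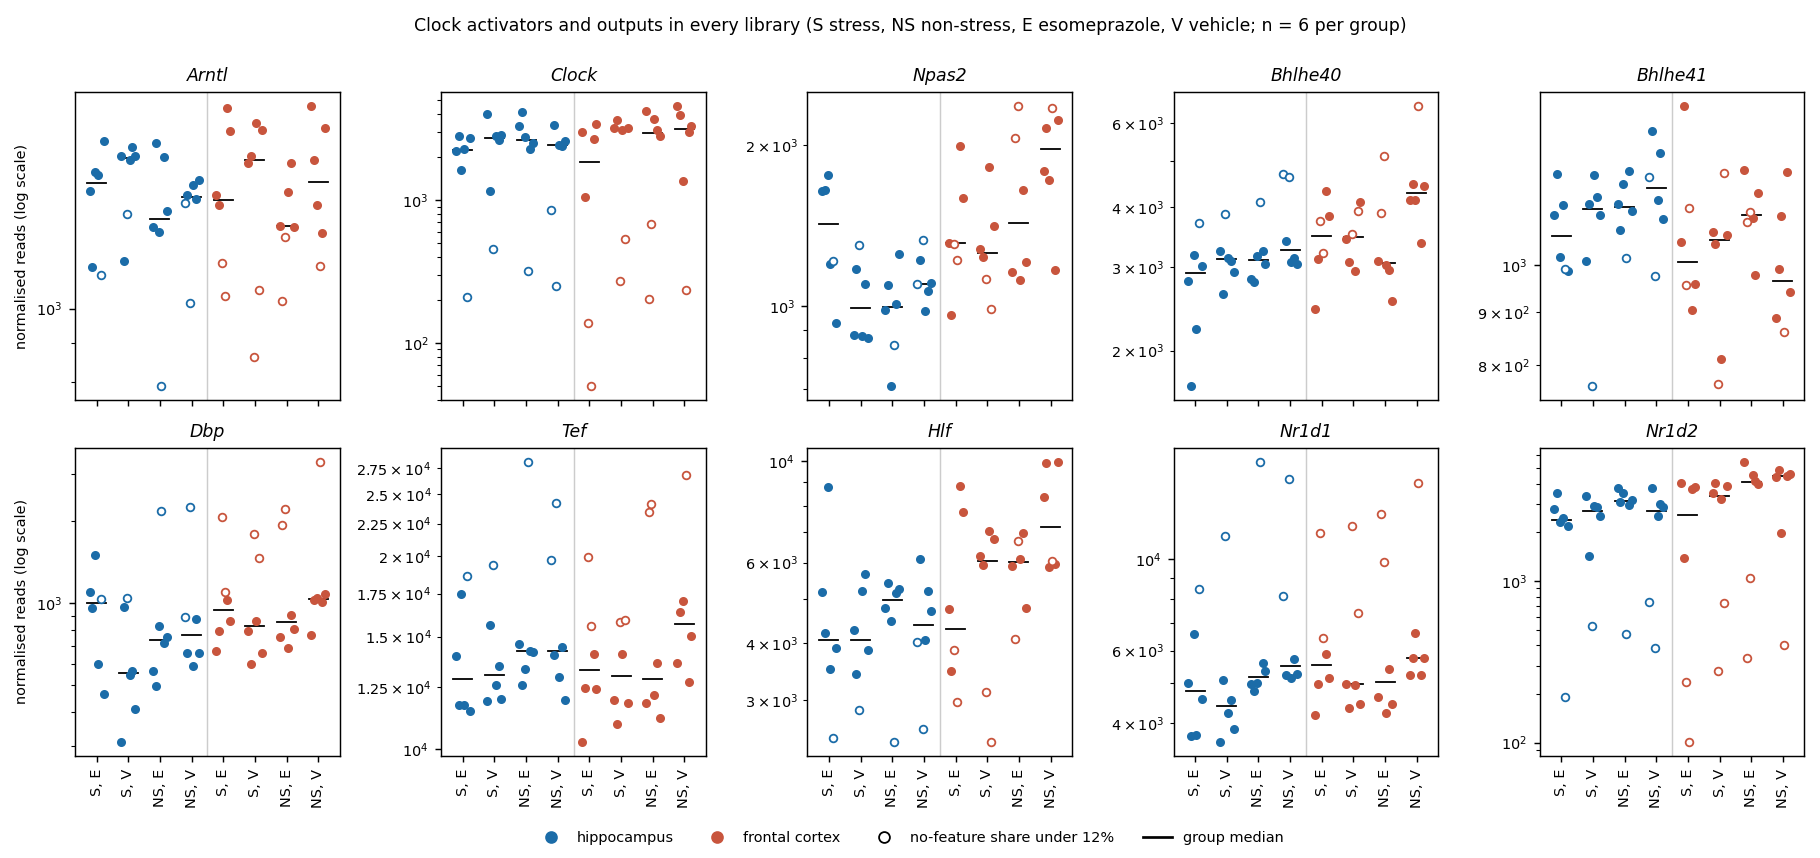
Normalised reads (log axis) of each of the 10 genes in every library, by tissue and condition, with group medians as lines and open points for libraries of a no-feature share under 12%. Clock and Nr1d2 spread downward, and Nr1d1 upward, in the open points of every condition.

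Clock, Nr1d2 and Nr1d1 differed between libraries of a low and a high no-feature share, and so did many other genes. Of all genes tested, 42.2% in hippocampus and 37.8% in frontal cortex did not overlap between libraries under 12% and the others. The paralogs Nr1d1 and Nr1d2 differed in opposite directions. Values are normalised reads (whole reads recovered from the deposited values and scaled to a common depth within a tissue), given as lowest, median and highest. Clock, the main partner of BMAL1, had 211, 321 and 854 in the libraries under 12%, against 1165, 2627 and 4154 in the others in hippocampus. Its frontal cortex values were 49.5, 236 and 678 in the libraries under 12%, against 1056, 3215 and 4590.1 in the others. Neither tissue showed an overlap, and the median was 8.17-fold and 13.6-fold higher in the libraries from 12% up.

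Nr1d2 (REV-ERB beta) went with Clock. It had 192, 473 and 746 in the libraries under 12%, against 1425, 2932 and 3783 in the others in hippocampus. Its values in frontal cortex were 101, 335 and 1044 in the libraries under 12%, against 1399, 4042 and 5488 in the others. Its close relative Nr1d1 (REV-ERB alpha), also a repressor of Arntl, lay the other way, with 8138, 11372 and 17273 in the libraries under 12%, against 3592, 5004 and 6587 in the others in hippocampus. For frontal cortex the values of Nr1d1 were 6422, 11557 and 15349 in the libraries under 12%, against 4192, 4988 and 6611 in the others. The Nr1d1 values did not overlap in hippocampus and did in frontal cortex.

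Among the other members, Tef and Bhlhe40 in hippocampus and Dbp in frontal cortex were higher in the libraries under 12% without overlap, and Arntl in frontal cortex was lower in them without overlap. The median of Dbp in frontal cortex was 1934 against 804, and that of Arntl was 1059 against 1556. Such separation was common in these libraries: 6357 of 15062 genes tested (42.2%) did not overlap between the classes in hippocampus and 5687 of 15040 (37.8%) in frontal cortex.

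**Figure D2:**
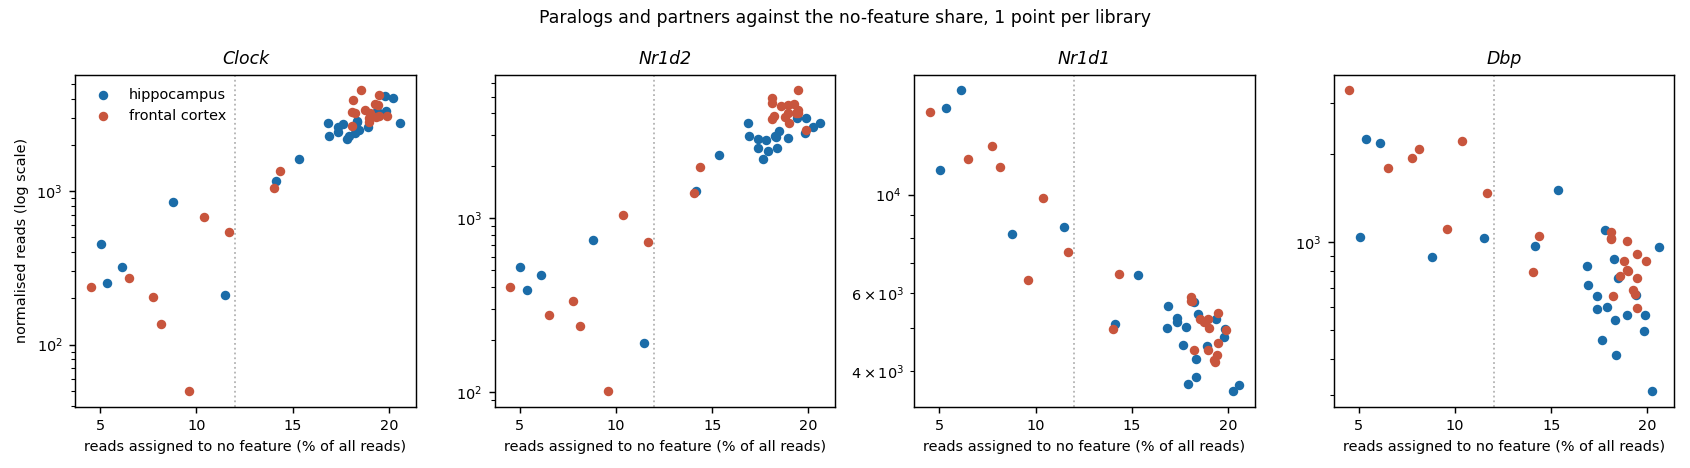
Normalised reads (log axis) of Clock, Nr1d2, Nr1d1 and Dbp against the no-feature share (percent of all reads), 1 point per library, by tissue, with a dotted line at 12%. Left of the line Clock and Nr1d2 are low (up to 854 and 1044 reads) and Nr1d1 is high (from 6422 reads up).

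A gene was called where limma's Benjamini-Hochberg adjusted p over all genes tested was under 0.05. Slopes were fitted in limma with both library measures (the no-feature share and the neighbouring-tissue score) and the group means in the model. The slope on the no-feature share, in log2 units per 10 percentage points, was called for 9 of 10 members in hippocampus (5 positive, 4 negative), against 85.1% of all genes. In frontal cortex it was called for 8 of 10 (4 positive, 4 negative), against 87.8% of all genes. The members' counts are near the background, but the sizes are not alike. Clock rose by 2.47 ± 0.20 (SE) in hippocampus and 3.40 ± 0.26 in frontal cortex, and Nr1d2 by 2.24 ± 0.19 and 3.13 ± 0.22. Of all genes, 97.3% and 98.1% had a smaller slope than Clock. Nr1d1, Dbp and Tef had slopes of the other sign. That of Nr1d1 was -1.15 ± 0.083 and -1.06 ± 0.074, that of Dbp -1.13 ± 0.14 and -1.17 ± 0.099, and that of Tef -0.65 ± 0.068 and -0.63 ± 0.059. Npas2, the relative of Clock, was not called in either tissue (-0.11 ± 0.099 and -0.14 ± 0.090).

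Among libraries from 12% up alone, fewer members had a called slope. There 5 of 10 members were called in hippocampus (background 44%), namely Clock (1.87 ± 0.23), Nr1d2 (1.43 ± 0.27), Nr1d1 (-0.93 ± 0.23), Dbp (-1.25 ± 0.43) and Bhlhe40 (-0.72 ± 0.24). In frontal cortex 3 of 10 were called (background 47.7%), namely Clock (2.98 ± 0.39), Nr1d2 (2.77 ± 0.34) and Tef (-0.62 ± 0.22). These fits rest on 19 and 17 libraries, of which 2 in each tissue lay below 16%. Without those 2, 1 member was called in hippocampus (background 13.6%), Clock (1.71 ± 0.35), and 0 in frontal cortex (background 0%, 1 member at an unadjusted p under 0.05), where Clock had 0.66 ± 1.09. The calls in frontal cortex thus depended on libraries below 16%.

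Members called with a positive and with a negative slope differed in base composition. The 5 called positive in hippocampus (Arntl, Clock, Bhlhe41, Hlf and Nr1d2) had transcripts of 40.9% to 47.7% GC, against 49.4% to 61.6% in the 4 called negative, while their transcript lengths overlapped (2976 to 9744 bases against 1837 to 4403). The GENCODE transcript of Clock has 40.9% GC and 9744 bases, 6831 of them 3′UTR, and that of Nr1d2 has 41.8% GC and 4663 bases. The transcript of Dbp has 61.6% GC and 1837 bases, and that of Nr1d1 has 56.8% GC and 2721 bases. Across genes, which are not independent replicates, the slope fell with transcript GC (Pearson r = -0.779 over 13739 genes in hippocampus, and -0.804 over 13741 in frontal cortex) and increased with log2 transcript length (r = 0.400 and 0.355). In 5 equal bins of genes, from low to high GC, the median slope was 1.47, 0.59, -0.063, -0.61 and -0.92 in hippocampus and 1.88, 0.64, -0.13, -0.62 and -0.91 in frontal cortex. In hippocampus Clock stood at percentile 6.33 of transcript GC and Dbp at 97.5. Whether GC, length or RNA quality carries these slopes was not tested.

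**Figure D3:**
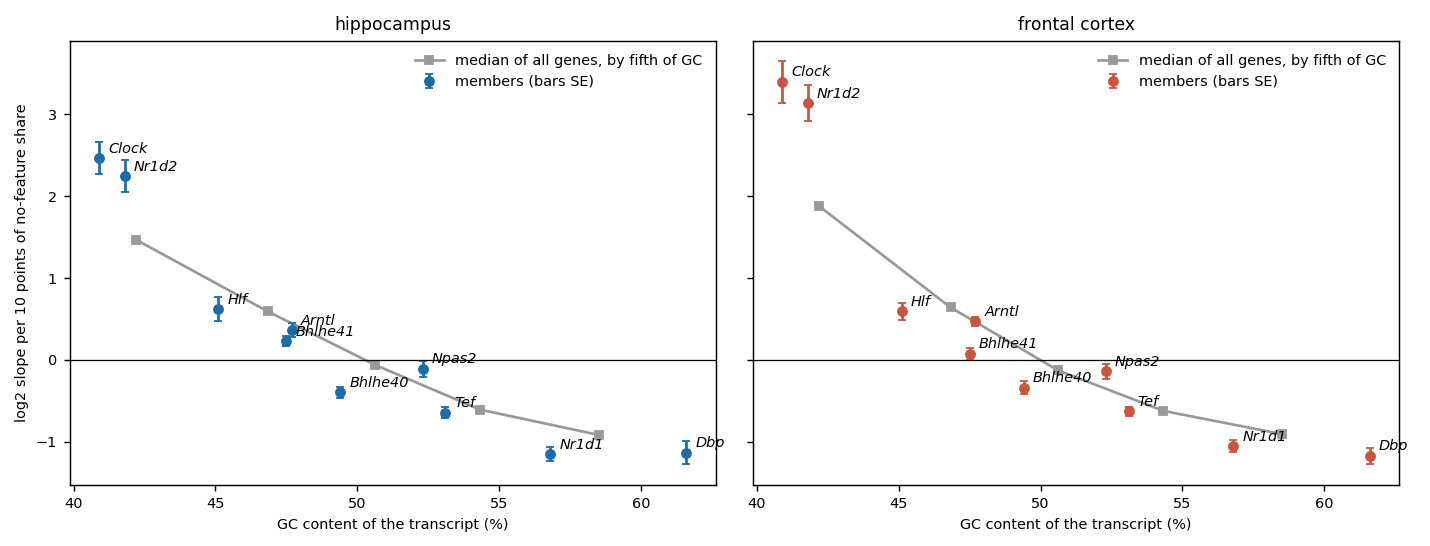
Slope on the no-feature share (log2 per 10 points) against transcript GC (percent), by tissue, with the members marked and the median slope in 5 equal bins of genes by GC. Slopes of the members fall with GC as the medians do, and Clock and Nr1d2 lie above the median of the lowest-GC bin (1.47 in hippocampus, 1.88 in frontal cortex).

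Markers of neighbouring tissue moved with members too. Of those called here, 2 of 3 in hippocampus and 5 of 7 in frontal cortex also had a called slope on the no-feature share. That slope was called for 85.1% and 87.8% of all genes, so these counts do not set the members apart. The slope on the striatal score in hippocampus, per unit of score, was called for 3 of 10 members (background 12%): Dbp (0.24 ± 0.061), Npas2 (0.14 ± 0.042) and Bhlhe40 (-0.11 ± 0.029). On the bulb score in frontal cortex 7 of 10 were called (background 45.3%). Among these, Npas2 (-0.15 ± 0.024) and Hlf (-0.15 ± 0.028) had the steepest slopes, and Bhlhe41 (0.066 ± 0.019) alone was positive. In bulk tissue, fewer cells of a type and less RNA per cell cannot be told apart.

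**Figure D4:**
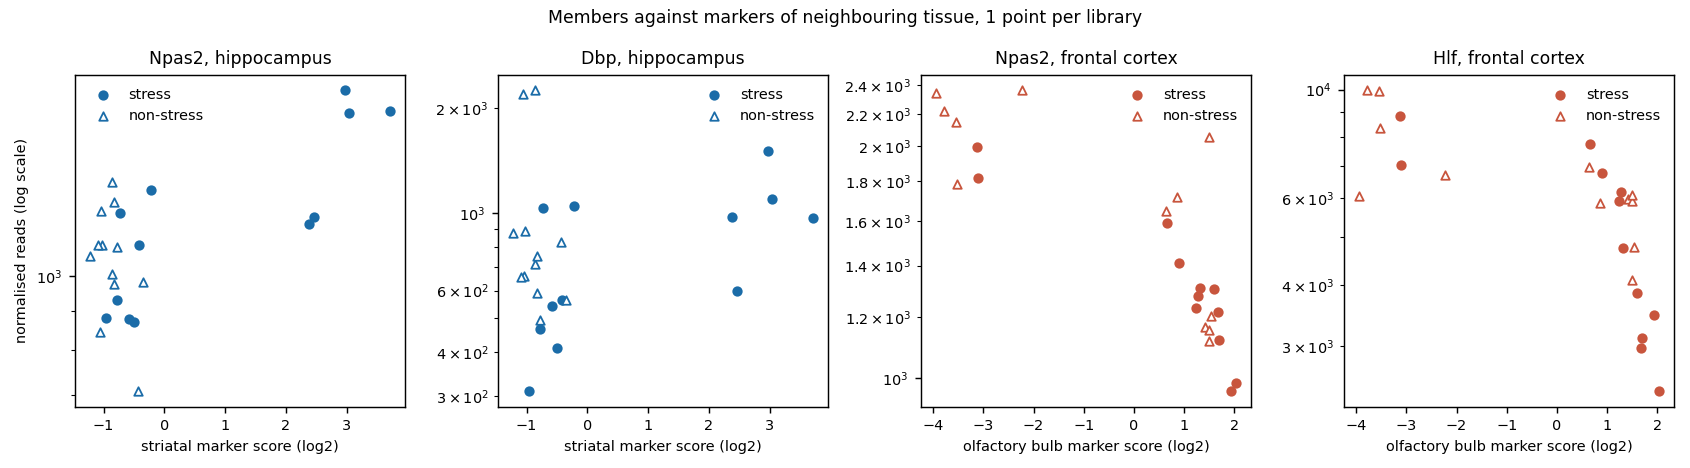
Normalised reads (log axis) of Npas2 and Dbp in hippocampus against the striatal marker score, and of Npas2 and Hlf in frontal cortex against the olfactory bulb marker score (mean log2 deviation), 1 point per library, filled for stress. In frontal cortex Npas2 lies from 1789 to 2368 at low bulb scores, against 962 to 2056 in the other libraries.

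Stress was compared with the control environment over both drug arms, 12 stressed against 12 non-stressed libraries per tissue, and in each drug arm. No member was called in any of these comparisons in either tissue. The background was 0.0133% of genes called in hippocampus (2 of 15062 by limma; 7 genes or 0.0465% with edgeR, 127 or 0.843% with DESeq2) and 0% in frontal cortex (with edgeR 0.00665%, with DESeq2 0.0665%), and limma called 0% in each single arm of either tissue. In the comparison over both arms there were, at an unadjusted p under 0.05, 0 members in hippocampus (background 5.9%) and 1, Npas2, in frontal cortex (background 3.79%). By sign, 2 members were higher and 8 lower in stressed hippocampus, with a median log2 fold change of -0.13 against -0.0085 for all genes. In frontal cortex 1 was higher and 9 lower, with a median of -0.22 against -0.017. In frontal cortex of vehicle mice all 10 were lower, with a median of -0.33 against -0.020, and the non-stressed vehicle group there is the one with 4 libraries of low bulb score. With that score as a covariate 8 were lower, with a median of -0.16. The signs of the members are not independent, since some members moved together over libraries. In frontal cortex Pearson's r over 24 libraries was 0.996 for Clock and Nr1d2 and 0.970 for Dbp and Nr1d1. The p-values of these comparisons rest on the spread between libraries within a condition. With 1 library per mouse and tissue, differences between mice and between library preparations or dissections cannot be told apart.

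Of the activators, Arntl had values that overlapped between all conditions. In hippocampus its lowest, median and highest values were 1108, 1466 and 1665 in stressed esomeprazole mice and 1154, 1580.4 and 1632 in stressed vehicle mice, against 789, 1312 and 1654 in non-stressed esomeprazole mice and 1018, 1404 and 1479.6 in non-stressed vehicle mice. In frontal cortex they were 1038, 1391 and 1837 in stressed esomeprazole mice and 863, 1573 and 1760.1 in stressed vehicle mice, against 1023, 1283 and 1556 in non-stressed esomeprazole mice and 1139, 1471 and 1853 in non-stressed vehicle mice. No condition stood apart, and its averaged stress effect was 0.11 ± 0.11 (unadjusted p = 0.331, adjusted p = 1) in hippocampus and 0.0099 ± 0.13 (unadjusted p = 0.941, adjusted p = 0.991) in frontal cortex. Clock, its partner, spread more widely within each condition. It had 211, 2243 and 2797 in stressed esomeprazole mice and 453, 2718 and 4041 in stressed vehicle mice, against 321, 2635 and 4154 in non-stressed esomeprazole mice and 252, 2419 and 3349 in non-stressed vehicle mice in hippocampus. In frontal cortex Clock had 49.5, 1863 and 3396 in stressed esomeprazole mice and 271, 3160.4 and 3620.1 in stressed vehicle mice, against 204, 2957 and 4209.5 in non-stressed esomeprazole mice and 236, 3146 and 4590.1 in non-stressed vehicle mice. Every condition held libraries of both the low and the high level described above, so the groups of Clock overlapped throughout.

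Npas2 was the activator with the smallest p-values. In hippocampus it had 931, 1426 and 1757 in stressed esomeprazole mice and 871, 991 and 1299.7 in stressed vehicle mice, against 707, 995 and 1253 in non-stressed esomeprazole mice and 977, 1100.1 and 1329.7 in non-stressed vehicle mice. Its frontal cortex values were 962, 1309.6 and 1993 in stressed esomeprazole mice and 987, 1255 and 1817 in stressed vehicle mice, against 1117, 1427 and 2368 in non-stressed esomeprazole mice and 1167, 1969 and 2345 in non-stressed vehicle mice. Stressed esomeprazole mice were highest in hippocampus, and non-stressed vehicle mice were highest in frontal cortex, with overlap in both. The stress effect in esomeprazole mice was 0.50 ± 0.16 (unadjusted p = 0.00613, adjusted p = 0.582) in hippocampus, and the stress by esomeprazole interaction was 0.64 ± 0.23 (unadjusted p = 0.0115, adjusted p = 1). In frontal cortex the averaged stress effect was -0.34 ± 0.15 (unadjusted p = 0.036, adjusted p = 0.941) and that in vehicle mice was -0.53 ± 0.22 (unadjusted p = 0.0242, adjusted p = 0.755). The difference of the averaged stress effect between the tissues was 0.52 ± 0.19 (unadjusted p = 0.00965, adjusted p = 0.948). None passed the adjustment. The share of all genes with an unadjusted p under 0.05 was 5.72% and 0.378% in the hippocampal comparisons, 6.47% in frontal cortex of vehicle mice and 3.81% for the difference between tissues.

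Npas2 also varied with the neighbouring-tissue markers. The 4 stressed esomeprazole libraries of high striatal score had 1639, 1648, 1757 and 1195 normalised reads, and the other 2 had 1213 and 931. With the score as a covariate the stress effect in esomeprazole mice was 0.17 ± 0.18, and without the striatal-high libraries 0.073 ± 0.20. In frontal cortex Npas2 lay from 1789 to 2368 in the 7 libraries of low bulb score, against 962 to 2056 in the others. There the effect in vehicle mice was -0.11 ± 0.16 with the score and -0.24 ± 0.26 without those libraries. The interaction in hippocampus was 0.44 ± 0.21 (unadjusted p = 0.0552, adjusted p = 1) with the score as a covariate, 0.42 ± 0.19 (unadjusted p = 0.0426, adjusted p = 0.889) with both library measures, and 0.25 ± 0.25 (unadjusted p = 0.348, adjusted p = 0.987) without the striatal-high libraries. All 5 striatal-high libraries came from stressed mice, so the markers and the condition cannot be told apart there, and the part of the bulb markers was not tested.

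The repressors Bhlhe40 (DEC1) and Bhlhe41 (DEC2) had no condition that stood apart. The medians of Bhlhe40 were 2904 in stressed esomeprazole mice and 3110.4 in stressed vehicle mice, against 3098 in non-stressed esomeprazole mice and 3257 in non-stressed vehicle mice in hippocampus, and 3473 in stressed esomeprazole mice and 3471 in stressed vehicle mice, against 3055 in non-stressed esomeprazole mice and 4292 in non-stressed vehicle mice in frontal cortex. Those of Bhlhe41 were 1069 in stressed esomeprazole mice and 1134 in stressed vehicle mice, against 1139 in non-stressed esomeprazole mice and 1188 in non-stressed vehicle mice in hippocampus, and 1007 in stressed esomeprazole mice and 1059 in stressed vehicle mice, against 1120.3 in non-stressed esomeprazole mice and 967 in non-stressed vehicle mice in frontal cortex. Over all libraries Bhlhe40 ran from 1681 to 4706 in hippocampus and from 2447 to 6536 in frontal cortex, and Bhlhe41 from 762 to 1352 and from 767 to 1430.3 in the same order. The conditions overlapped for both genes, and neither had an unadjusted p under 0.05 in a stress comparison.

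Of the PAR bZIP outputs, Dbp is a strongly rhythmic transcript in many tissues. In hippocampus it had 465, 1001 and 1504 in stressed esomeprazole mice and 309, 555 and 1045 in stressed vehicle mice, against 496, 733 and 2186 in non-stressed esomeprazole mice and 591, 768 and 2254 in non-stressed vehicle mice. In frontal cortex it had 666, 949 and 2076 in stressed esomeprazole mice and 597, 829 and 1794 in stressed vehicle mice, against 686, 856 and 2223 in non-stressed esomeprazole mice and 769, 1039 and 3321 in non-stressed vehicle mice. The highest library of 3 conditions in hippocampus, all but stressed esomeprazole, was one of a no-feature share under 12%, and all conditions overlapped. The averaged stress effect on Dbp was -0.23 ± 0.27 (unadjusted p = 0.411, adjusted p = 1) in hippocampus and -0.22 ± 0.27 (unadjusted p = 0.413, adjusted p = 0.941) in frontal cortex. The conditions also overlapped for Tef, the most abundant of the 3 by level per kilobase. Its medians were 12874 in stressed esomeprazole mice and 13058 in stressed vehicle mice, against 14218 in non-stressed esomeprazole mice and 14260.4 in non-stressed vehicle mice in hippocampus, and 13285 in stressed esomeprazole mice and 13013 in stressed vehicle mice, against 12884 in non-stressed esomeprazole mice and 15704 in non-stressed vehicle mice in frontal cortex. Hlf, the third of the family, had medians of 4059.9 in stressed esomeprazole mice and 4066 in stressed vehicle mice, against 4959 in non-stressed esomeprazole mice and 4384 in non-stressed vehicle mice in hippocampus. In frontal cortex Hlf had 2974, 4303 and 8825 in stressed esomeprazole mice and 2427, 6059 and 7024 in stressed vehicle mice, against 4091, 6007 and 6964 in non-stressed esomeprazole mice and 5881, 7199.7 and 9994 in non-stressed vehicle mice. Non-stressed vehicle mice were highest for Hlf there, with overlap, and the stress effect in vehicle mice was -0.62 ± 0.29 (unadjusted p = 0.0425, adjusted p = 0.755). It was -0.18 ± 0.27 with the bulb score as a covariate. Hlf lay from 6061 to 9994 in the libraries of low bulb score, against 2427 to 7746 in the others.

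Of the REV-ERB outputs, Nr1d1 had 3715, 4796 and 8472 in stressed esomeprazole mice and 3592, 4391 and 11372 in stressed vehicle mice, against 4776, 5183 and 17273 in non-stressed esomeprazole mice and 5156, 5489 and 15679 in non-stressed vehicle mice in hippocampus. In frontal cortex Nr1d1 had 4192, 5521 and 11557 in stressed esomeprazole mice and 4341, 4970.4 and 12018 in stressed vehicle mice, against 4236, 5022 and 12887 in non-stressed esomeprazole mice and 5233, 5761 and 15349 in non-stressed vehicle mice. The 5 highest values in each tissue belonged to libraries of a no-feature share under 12%, and the conditions overlapped. Its averaged stress effect was -0.38 ± 0.24 (unadjusted p = 0.131, adjusted p = 1) in hippocampus and -0.12 ± 0.23 (unadjusted p = 0.605, adjusted p = 0.952) in frontal cortex. Nr1d2 had medians of 2376 in stressed esomeprazole mice and 2704 in stressed vehicle mice, against 3127 in non-stressed esomeprazole mice and 2706 in non-stressed vehicle mice in hippocampus, and 2558 in stressed esomeprazole mice and 3362 in stressed vehicle mice, against 4093 in non-stressed esomeprazole mice and 4449.8 in non-stressed vehicle mice in frontal cortex.

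**Figure D5:**
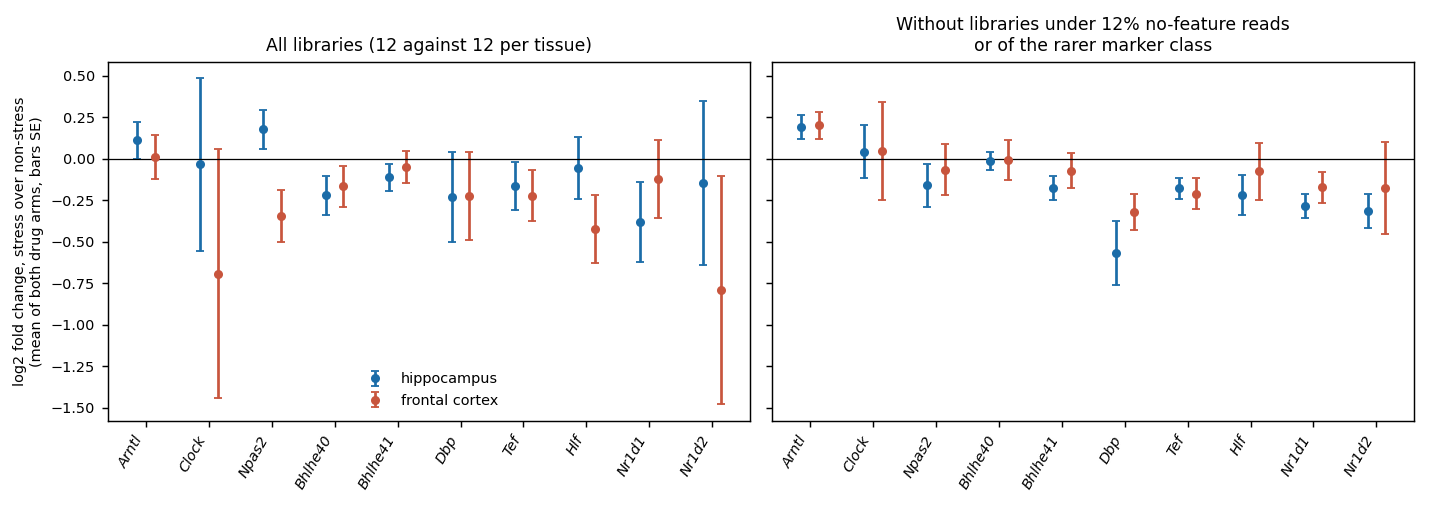
Averaged stress effect (log2 fold change, stressed over non-stressed, with SE bars) of each member in hippocampus and frontal cortex, in all libraries and without libraries of a low no-feature share or of the rarer marker class. Error bars are widest for Clock and Nr1d2 with all libraries.

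The same comparison was made without the libraries that stood apart on either measure, an alternative chosen after seeing the data. It leaves 1 stressed esomeprazole library in hippocampus and 2 non-stressed vehicle libraries in frontal cortex, so a lone library is assumed to vary like the other groups. Arntl lay above 0 and the outputs Dbp and Nr1d1 below 0 in both tissues, as with all libraries, and their errors were smaller. Arntl had an averaged stress effect of 0.19 ± 0.073 (unadjusted p = 0.0203, adjusted p = 0.953) in hippocampus and 0.20 ± 0.084 (unadjusted p = 0.035, adjusted p = 1) in frontal cortex. Dbp had -0.57 ± 0.19 (unadjusted p = 0.0116, adjusted p = 0.833) and -0.32 ± 0.11 (unadjusted p = 0.0121, adjusted p = 1). Nr1d1 had -0.28 ± 0.072 (unadjusted p = 0.00162, adjusted p = 0.454) and -0.17 ± 0.094 (unadjusted p = 0.0972, adjusted p = 1). The sizes depended on which libraries were left out. Without libraries under 12% alone, the effect on Dbp was -0.0024 ± 0.22 (unadjusted p = 0.992, adjusted p = 0.997) in hippocampus and -0.17 ± 0.11 (unadjusted p = 0.13, adjusted p = 0.999) in frontal cortex, and that on Arntl 0.057 ± 0.079 (unadjusted p = 0.484, adjusted p = 0.732) and 0.15 ± 0.084 (unadjusted p = 0.0865, adjusted p = 0.999). Without libraries of either kind, Clock in both tissues and Npas2 in hippocampus had the opposite sign to that with all libraries. In all, 6 of 10 members in hippocampus had an unadjusted p under 0.05 (background 4.6%) and 3 of 10 in frontal cortex (background 1.45%), and none was called after adjustment. This was 1 of 13 alternatives run for each stress comparison within a tissue, and the count depended on the choice. With all libraries it was 0 in hippocampus and 1 in frontal cortex, and without libraries under 12% alone it was 2 and 0. Where the model held the no-feature share as a term, it was 3 and 6. Over the 13 it ran from 0 to 6 in either tissue, and it was 0 in 9 of them in hippocampus and 4 in frontal cortex. For the fits without libraries under 12% alone and those with the no-feature share as a term, no share over all genes is given here. Their counts thus describe the members alone.

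Esomeprazole was compared with vehicle over both stress arms, 12 libraries against 12. No member was called and none had an unadjusted p under 0.05 in either tissue, where 0% of genes were called in both and 0.724% in hippocampus and 1.09% in frontal cortex had such a p. The members' log2 fold changes ran from -0.20 to 0.23 in hippocampus and from -0.67 to 0.14 in frontal cortex. For the stress by esomeprazole interaction no member was called in either tissue (background 0%), and Npas2 in hippocampus was the single member with an unadjusted p under 0.05.

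Between tissues, in a joint fit of all 48 libraries, Npas2 and Hlf were lower in hippocampus than in frontal cortex. These 2 of 10 members were called, both lower, against 25.7% of 14844 genes (13.8% lower in hippocampus). Npas2 had 149, 231 and 361 normalised reads per kilobase in hippocampus, against 199.9, 283 and 490.1 in frontal cortex (lowest, median and highest). Hlf had 360.1, 661 and 1292 in hippocampus, against 362, 895 and 1484 in frontal cortex. Both genes overlapped between the tissues. The fold change of Npas2, hippocampus over frontal cortex, was -0.41 ± 0.095 (unadjusted p = 9.23e-05, adjusted p = 0.000707) on the log2 scale, and that of Hlf was -0.38 ± 0.14 (unadjusted p = 0.0107, adjusted p = 0.0426). Bhlhe40 had -0.20 ± 0.084 (unadjusted p = 0.0204, adjusted p = 0.0731) and Dbp -0.43 ± 0.19 (unadjusted p = 0.0307, adjusted p = 0.102), which missed the threshold. Without libraries of the rarer marker class, Npas2 was still called, at -0.33 ± 0.10 (unadjusted p = 0.00275, adjusted p = 0.0144). Hlf was not, with a fold change of similar size and a larger error, -0.32 ± 0.17 (unadjusted p = 0.0694, adjusted p = 0.206). That of Bhlhe40 was then -0.015 ± 0.085 (unadjusted p = 0.858, adjusted p = 0.958). The call of Hlf was also lost under median-of-ratios scaling (adjusted p = 0.0563). Leaving out libraries under 12% or of the rarer class kept 1 stressed esomeprazole library of hippocampus. In that fit, an alternative added after seeing the data, Hlf had -0.29 ± 0.11 and Dbp -0.51 ± 0.12. The frontal cortex level of both genes moved with the bulb score, and its part in the tissue difference was not tested.

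Of the other clock genes on a list of 20, 19 were tested in each tissue. In the joint fit 2 were called higher and 5 lower in hippocampus than in frontal cortex, against 25.7% of all genes (13.8% lower). Csnk1e, a kinase of the Period proteins, had -0.41 ± 0.047 (unadjusted p = 4.99e-11, adjusted p = 1.94e-09), and Timeless, a replication fork factor, had -0.57 ± 0.086 (unadjusted p = 3.97e-08, adjusted p = 7.53e-07). In the averaged stress comparisons none of the 19 was called in either tissue. Those of smallest p in frontal cortex were Ciart, Timeless and Per2. Ciart, a repressor of the activators, had -0.70 ± 0.16 (unadjusted p = 0.000164, adjusted p = 0.385), Timeless had 0.34 ± 0.14 (unadjusted p = 0.0219, adjusted p = 0.941) and Per2 had -0.49 ± 0.20 (unadjusted p = 0.025, adjusted p = 0.941). In hippocampus Fbxl21, an F-box gene of Cryptochrome turnover, had 0.42 ± 0.17 (unadjusted p = 0.0203, adjusted p = 0.718) and Cry1 had 0.26 ± 0.12 (unadjusted p = 0.038, adjusted p = 0.808).

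Activators were set against outputs within each library by the mean log2 deviation of Arntl, Clock and Npas2 minus that of Dbp, Tef, Hlf, Nr1d1 and Nr1d2. In hippocampus this difference averaged 0.096 ± 0.42 in stressed esomeprazole and 0.18 ± 0.42 in stressed vehicle mice, against -0.14 ± 0.67 in non-stressed esomeprazole and -0.14 ± 0.51 in non-stressed vehicle mice (SD, 6 libraries each). In frontal cortex it averaged -0.10 ± 0.67, 0.12 ± 0.58, -0.031 ± 0.53 and 0.016 ± 0.58 in the same order. With all libraries the SD of each condition exceeded the differences between conditions. From 12% up it averaged 0.22 ± 0.33, 0.31 ± 0.31, 0.12 ± 0.26 and 0.14 ± 0.13 in hippocampus, and 0.32 ± 0.19, 0.48 ± 0.075, 0.30 ± 0.036 and 0.23 ± 0.25 in frontal cortex (4 or 5 libraries each). There, in frontal cortex, stressed vehicle mice lay above non-stressed esomeprazole mice by more than either SD. These groups differ in stress and in drug, so this gap is not a stress contrast. Within the same drug, stressed and non-stressed frontal cortex did not differ by more than the larger SD. In vehicle mice the means were 0.48 and 0.23, with a larger SD of 0.25. By library class, the activators minus outputs difference lay from -1.44 to -0.27 in hippocampal libraries under 12% no-feature reads. In the other hippocampal libraries it lay from -0.30 to 0.67. In frontal cortex it lay from -1.08 to -0.44, against -0.042 to 0.60. Being a score over the members, it was given no test.

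The ratio of Arntl to Dbp, 1 activator and 1 output, varied, with all libraries, more within conditions than between them. Its log2 averaged 0.65 ± 0.75 in stressed esomeprazole and 1.33 ± 0.86 in stressed vehicle hippocampus, against 0.67 ± 1.12 in non-stressed esomeprazole and 0.62 ± 0.91 in non-stressed vehicle hippocampus. In frontal cortex it averaged 0.46 ± 0.77 and 0.55 ± 1.05 in the stressed esomeprazole and vehicle groups, against 0.25 ± 0.89 and 0.29 ± 0.96 in the non-stressed ones. From 12% up the frontal cortex values were 0.92 ± 0.14 and 1.20 ± 0.24 in the stressed esomeprazole and vehicle groups, against 0.82 ± 0.16 and 0.65 ± 0.38 in the non-stressed ones, so that the 2 vehicle groups differed by more than either SD. In hippocampus they were 0.76 ± 0.79 and 1.52 ± 0.79, against 1.10 ± 0.43 and 1.06 ± 0.27. Of the 5 non-stressed vehicle libraries of frontal cortex from 12% up, 2 were not of low bulb score, against 3 of the 4 stressed vehicle ones. The part of that score in the difference between the vehicle groups was not tested. Among libraries from 12% up, deviations of Dbp from the group means went with those of Tef and Nr1d1 in both tissues. Pearson's r was 0.823 (Spearman 0.732) over 19 hippocampal and 0.752 (Spearman 0.703) over 17 frontal cortex libraries for Dbp and Tef, and 0.744 (Spearman 0.774) and 0.850 (Spearman 0.882) for Dbp and Nr1d1. Dbp and Hlf had 0.438 (Spearman 0.311) and 0.370 (Spearman 0.301), and Dbp and Nr1d2 had -0.283 (Spearman -0.067) and -0.125 (Spearman -0.240). Nr1d1 and Nr1d2 had -0.488 (Spearman -0.323) and -0.347 (Spearman -0.257), so the outputs did not all go together. Arntl and Dbp had -0.482 (Spearman -0.477) and 0.189 (Spearman 0.176), of opposite sign in the tissues. Arntl and Hlf, also an activator and an output, had 0.301 (Spearman 0.281) and 0.840 (Spearman 0.875). Clock and Nr1d2 had 0.756 (Spearman 0.596) and 0.950 (Spearman 0.885). These are descriptions: the points share library, depth and base composition.

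Genes whose pattern was most like a member's were found over 13247 genes by the mean over both tissues of Pearson's r of deviations from group means, with 24 libraries per tissue, those under 12% included. For Arntl the 5 highest were Ptk2, Kcna1, Dcaf6, Ryr2 and Satb1 (0.892 to 0.909) and the 3 lowest Mdk, Haus7 and Klhdc8b (-0.903 to -0.895). For Dbp they were Rhobtb2, Arhgef10l, Mgat5b, Gpr146 and Abcb9 (0.928 to 0.939) and Apaf1, F730043M19Rik and Mcmbp (-0.932 to -0.923). For Nr1d1 they were Klhdc3, Atg9a, Rab4b, Pik3r2 and Ppp1r37 (0.988 to 0.990) and Hmgxb4, Zfp866 and Tmem260 (-0.974 to -0.972). No other clock gene was among them. In these libraries the slope on the no-feature share was called for 85.1% of all genes in hippocampus and 87.8% in frontal cortex. How far the likenesses follow that share was not tested.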

How the data were processed

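Poly(A) RNA was sequenced with a stranded kit as pairs of 151 bases, per the labels' protocols. The submitters' processing notes name STAR, HTSeq, DESeq2 and mm10, and give no version or role. The deposited values are a signal: each is a whole read count times 1 factor per library (all within 0.02 of a whole number), scaled by the authors per tissue in a way not given in the sources used here. Read counts were recovered from them and scaled by TMM (edgeR 4.0.16). After filterByExpr at a minimum count of 10, 15062 genes of hippocampus, 15040 of frontal cortex and 14844 of both together entered limma 3.58.1 with a trend on log2(normalised reads + 1), 1 mean per group, with Benjamini-Hochberg adjustment at 0.05. Errors of fold changes are standard errors. edgeR and DESeq2 1.42.0 on recovered reads were alternatives. Alternatives of scaling, filter, pseudocount, block, covariates and left-out libraries were also run. Slopes, both covariates together and fits without libraries under 12% or 16% were added after seeing the data. The test was checked on simulated data. R 4.3.3 (data.table, version 1.17.8), Python 3.11.15, numpy 2.4.6, pandas 2.3.3, scipy 1.17.1 and matplotlib 3.10.9 were used.

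Each member was described, and a fold change named where the unadjusted p was under 0.05, and for Arntl, Dbp and Nr1d1 in the averaged stress comparisons; of the other clock genes up to 3 of smallest p were named, apart from 1 not reported here. The members, lists, marker classes and tests were chosen with earlier results of these data known. Positions, transcript lengths and GC are from GENCODE vM21. No protein sequence was used here.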

Additional observations from a re-analysis of the deposited data

Results flagged for a closer look

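In 15 of the 80 sets of 6 libraries (10 genes in 8 groups), 1 library lay far from the other 5 by Dixon's test at 95%, which chance alone flags in about 1 in 20 sets. All 15 values come from 5 libraries, each of a no-feature share under 12%. The sets share libraries, and the share of all genes flagged in this way is not given here. Between libraries under 12% and the others, 42.2% of all genes in hippocampus and 37.8% in frontal cortex did not overlap. The 15 flags therefore do not set the members apart from other genes. Replicate 4 of non-stressed esomeprazole hippocampus (6.12% no-feature reads) held 7 of them. Its Arntl was 789 normalised reads (others 1262 to 1654), its Clock 321 normalised reads (others 2296 to 4154), its Hlf 2430 normalised reads (others 4477 to 5426) and its Nr1d2 473 normalised reads (others 2951 to 3764), all low. Its Dbp was 2190 normalised reads (others 496 to 829), its Tef 28100 normalised reads (others 12595 to 14625) and its Nr1d1 17300 normalised reads (others 4776 to 5612), all high. Replicate 3 of non-stressed vehicle hippocampus (5.36%) had a low Arntl of 1020 normalised reads (others 1377 to 1479.6) and a high Dbp of 2250 normalised reads (others 591 to 888). Replicate 5 of stressed esomeprazole hippocampus (11.5%) had a low Clock of 211 normalised reads (others 1617 to 2797) and a low Nr1d2 of 192 normalised reads (others 2199 to 3505). Replicate 3 of stressed vehicle hippocampus (5.03%) had a high Nr1d1 of 11400 normalised reads (others 3592 to 5098). In frontal cortex, replicate 4 of the non-stressed vehicle group (4.50%) had a high Dbp of 3320 normalised reads (others 769 to 1079.9), a high Nr1d1 of 15300 normalised reads (others 5233 to 6611) and a low Nr1d2 of 403 normalised reads (others 1975 to 4882). This library also had the lowest bulb marker score, -3.94.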

How the results depend on the processing

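No member was called in any stress, esomeprazole or interaction comparison under any alternative run, edgeR and DESeq2 among them, or with any 1 library left out, so these counts stayed at 0. The tissue comparison, with 2 members called, had 1 under median-of-ratios scaling, under the replicate block (condition and number as a mouse) and without the rarer marker class, 4 with the no-feature share as covariate and 5 without libraries under 12%. Without libraries under 12% or of the rarer class it had 3, and these last 2 were added after seeing the data. With 1 library left out it had 1 to 3. Npas2 was called in all 48 such fits and in 10 of 10 alternatives; Hlf was not called in 24 of the 48, nor under median-of-ratios scaling (adjusted p = 0.0563) or the replicate block (adjusted p = 0.0684). The 25.7% of all genes called between tissues belongs to the test reported. No such share is given here for the alternatives of that comparison, so their counts describe the members alone. The direction of a named member reversed in 6 alternatives. Without libraries under 12% or of the rarer class, the log2 effect was -0.092 for Npas2 in stressed esomeprazole hippocampus, -0.090 for its difference between tissues and 0.074 for Hlf in vehicle frontal cortex. Without the rarer class, the averaged stress effect in frontal cortex was 0.067 for Nr1d1 and 0.0023 for Dbp, and under the deposited scaling it was -0.0047 for Arntl. With 1 library left out, that of Arntl ran from -0.030 to 0.094 and that of Nr1d1 from -0.22 to 0.0085, reversed without replicate 4 of non-stressed vehicle mice. The causes were not tested. The activators minus outputs values moved by less than 1 SD under each alternative. With 1 library left out, their averaged stress effect ran from 0.15 to 0.35 in hippocampus and from -0.094 to 0.11 in frontal cortex. Their averaged esomeprazole effect ran from -0.14 to 0.085 and from -0.24 to -0.040 in the same order. The sign thus held for stress in hippocampus and for esomeprazole in frontal cortex. It did not hold for stress in frontal cortex or for esomeprazole in hippocampus.

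The labels do not say that a number marks 1 mouse in both tissues. Deviations of same-numbered libraries correlated over 0.1 in 15 of 24 pairs (-0.833 to 0.917), and 8 of 24 libraries correlated best with their own number, 6 libraries being compared per condition. Of 3 genes singled out after their values were seen, r over same-numbered libraries was 0.950 for Capn11, 0.911 for Erdr1 and 0.863 for Plin4, a hint from the data, not the design. Since not every pair correlated over 0.1, the numbers were not taken to pair the libraries in the test reported. The deposited scaling and the marker score were not run for the joint fit. Depth limits these genes little, since the lowest member value is 49.5 normalised reads.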

Other observations

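Libraries that carry the same condition and number in hippocampus and frontal cortex gave 24 pairs. Over these, Pearson's r of deviations from group means was 0.404 for Bhlhe41 (Spearman 0.297) and -0.431 for Npas2 (Spearman -0.470), against a median of 0.054 over all genes. Without pairs that hold a library of the rarer marker class, 12 pairs, it was 0.715 for Bhlhe41 and 0.0679 for Npas2, against a median of 0.246. Over the 13 pairs from 12% no-feature reads it was 0.158 and -0.366, against a median of -0.0442, so neither value was stable over the sets of pairs. The labels do not say whether a pair comes from 1 mouse, and no test was made.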
